A study of Mus musculus with 2 samples.

Results

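A set of 106 nuclei with the transcripts of parvalbumin-type inhibitory neurons was examined among 12918 nuclei of mouse entorhinal cortex. They were chosen as the interneurons that carried Nxph1 with low counts of Sst and Adarb2, and are called Sst-negative Nxph1 nuclei below. A member had at least 5000 UMIs (unique molecular identifiers, each marking 1 captured RNA molecule), at least 8 UMIs of Gad1 and Gad2 together that also made up at least 0.05% of its total, at most 3 UMIs of Slc17a7, fewer than 10 of Adarb2, at most 4 of Sst and at least 5 of Nxph1. Since counts of these genes chose the nuclei, their levels are given as a description of the selection. The vehicle library held 45 of the nuclei and the OLE library 61. Sst-negative means few counts here, as 16 vehicle and 13 OLE members held Sst, and 15 and 17 held Adarb2.

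Cortical interneurons release the inhibitory transmitter GABA and fall into classes by embryonic origin. Those from the medial ganglionic eminence carry the transcription factor Lhx6 and divide mainly into Sst cells, which inhibit dendrites, and Pvalb cells. Pvalb basket cells fire fast, trigger transmitter release through synaptotagmin-2, repolarize with Kv3 potassium channels, and inhibit the cell bodies of pyramidal neurons, whereas the rarer chandelier cells contact axon initial segments.

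The question of the experiment was how OLE (N-oleoyl-leucine, labelled C18:1-Leu), an N-acyl amino acid linked to the enzyme PM20D1, changes gene expression in the cortex of a mouse that forms amyloid plaques. All mice were male APP/PS1 animals, which carry transgenes for mutant amyloid precursor protein and presenilin 1, and were 18 months old. From 15 to 18 months, 1 group drank C18:1-Leu at 25 mg/kg/day in alkaline water and the other received the DMSO vehicle in the same way. Entorhinal cortex of 5 mice was pooled into 1 library for each condition, and no mouse without the transgenes was among the samples analysed.

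With 1 library per condition there was no replicate and no test between the conditions, because nuclei of a pool are not separate animals. Each difference below therefore compares 2 libraries, and treatment, the particular mice of each pool and library preparation cannot be told apart. The 95% intervals are exact binomial intervals and cover counting error only. The vehicle library held 6745 nuclei and the OLE library 6173, with 70845739 and 69485537 UMIs. The Sst-negative Nxph1 nuclei had a median of 20886 UMIs (10521 to 44237) in vehicle and 18479 (6186 to 41602) in OLE, and a median of 4894 and 4963 detected genes. The median share of mitochondrial transcripts in them was 0.286% and 0.295%. None of the 14 barcodes that occurred in both libraries belonged to a member.

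The class took a similar share of interneurons in both libraries. It was 45 of 147 gated interneurons in vehicle (30.6%, 95% interval 23.3 to 38.7) and 61 of 182 in OLE (33.5%, 26.7 to 40.9). The difference of 2.90 percentage points had a counting interval from -7.70 to 13.3 points, so neither a loss nor a gain of that size was detectable with these numbers of nuclei. Of all nuclei, the class was 0.667% in vehicle and 0.988% in OLE, but the vehicle library held more shallow nuclei (median 3989 against 6392 UMIs over all nuclei). Among nuclei with at least 5000 UMIs the shares were 1.49% and 1.64%.

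The limits on Sst and Adarb2 passed through sparsely filled ranges of counts. No member had more than 3 Sst UMIs, and only 0 vehicle and 2 OLE nuclei lay just beyond the Sst limit, with 5 or 6 UMIs. The minimum on Gad1 and Gad2 cut through a denser range, with 6 vehicle and 7 OLE members at 8 or 9 UMIs. Another 9 vehicle and 6 OLE nuclei met every other condition at 6 or 7 UMIs. Those excluded nuclei held 13 and 11 Syt2 UMIs and 3 and 1 Pvalb UMIs in all, beside 5 and 17 Syt2 and 3 and 4 Pvalb UMIs in the members just inside.

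The label of Pvalb class was checked on genes that the rule did not use, and the nuclei carried them. Pvalb (chromosome 15, 78191114 to 78206400, minus strand, mm10) encodes the calcium buffer parvalbumin that gives the class its name. It was found in 23 of 45 vehicle nuclei (51.1%) and 36 of 61 OLE nuclei (59.0%). In Sst nuclei, defined by the same gates but at least 5 Sst UMIs and no minimum of Nxph1, Pvalb was in 7.69% and 12.2%. In Slc17a7 nuclei (at least 5000 UMIs, at least 4 of Slc17a7 and fewer than 8 of Gad1 and Gad2), which as glutamatergic neurons should largely lack it, the shares were 2.38% and 3.40% at median depths of 24924 and 21224 UMIs. With every nucleus thinned to 5000 UMIs, Pvalb was left in 13.3% and 27.9% of the class and in 0.594% and 1.62% of Slc17a7 nuclei. Each nucleus carried few copies of Pvalb. The sums were 49 UMIs in vehicle and 89 in OLE, and the highest nucleus held 1.87 and 3.58 per 10000 of its own UMIs.

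Some more abundant genes of fast-spiking cells were found in nearly every member, but also in other interneurons. Kcnc2, which encodes the Kv3.2 potassium channel, was in all 45 and all 61 nuclei at 4360 and 3753 UMIs per 1000000 UMIs of the class (counts per 1000000, CPM), against 219 and 220 in Slc17a7 nuclei. It was also in every Sst nucleus, at 3106 and 2408 CPM, and in every one of the 14 Vip nuclei of each library, at 1055 and 1156 CPM. Btbd11, a gene given as a marker of the class, was in 97.8% and 98.4% of nuclei, and in 11.1% and 11.2% of Slc17a7 nuclei. Other interneurons carried Btbd11 as well, with 73.1% and 73.2% of Sst nuclei, 90.2% and 90.8% of Adarb2 nuclei without Vip and all Vip nuclei, at lower levels (836 and 794 CPM in the class, 218 and 179 in Sst nuclei, 239 and 240 in Adarb2 nuclei without Vip, 482 and 513 in Vip nuclei). Neither Kcnc2 nor Btbd11 therefore separates the class from other interneurons by presence alone. Syt2, the synaptotagmin of fast GABA release (chromosome 1, 134646677 to 134762593), was in 57.8% and 59.0% of members and in 3.85% and 14.6% of Sst nuclei and 16.0% and 13.4% of Slc17a7 nuclei. Tac1, which encodes the precursor of substance P, was in 48.9% and 44.3% of members and in 19.2% and 14.6% of Sst nuclei.

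**Figure D1:**
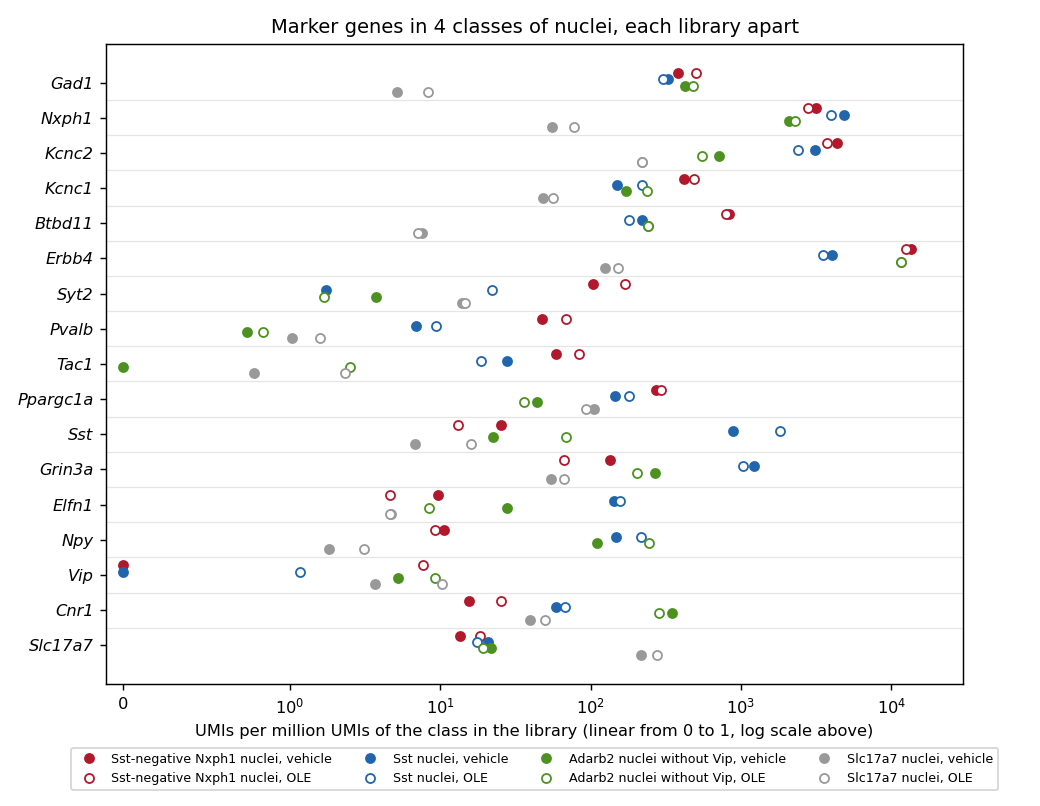
UMIs per 1000000 UMIs of the class (CPM) for 17 marker genes (rows) in Sst-negative Nxph1, Sst, Adarb2 (without Vip) and Slc17a7 nuclei, on a scale that is linear from 0 to 1 and logarithmic above; filled points are the vehicle library and open points the OLE library. Btbd11, Syt2, Pvalb and Tac1 lie furthest right in Sst-negative Nxph1 nuclei in both libraries, Sst and Grin3a in Sst nuclei, and Slc17a7 in Slc17a7 nuclei.

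Markers of other cell types were present at levels that differed between lists. The 4 chandelier markers (Vipr2, Unc5b, Pthlh, Cpne5) summed to 18 and 19 UMIs, or 17.4 and 14.6 CPM, and Vipr2 was at 0 in both libraries. Their sum in Slc17a7 nuclei was 52.3 and 51.1 CPM, nearly all of it Cpne5 (48.6 and 46.3). Pthlh stood higher in the class, at 2.91 and 8.45 CPM against 0.143 and 0.466 in Slc17a7 nuclei, and was in 2 vehicle and 10 OLE members. Unc5b was at 7.75 CPM in vehicle members against 2.60 in Slc17a7 nuclei, and at 0 UMIs in OLE members. The 8 glutamatergic markers summed to 70.7 and 73.7 CPM, against 1095 and 1195 in Slc17a7 nuclei. The 7 oligodendrocyte markers were higher in OLE, at 108 and 184 CPM (log2 ratio 0.76, 95% interval 0.43 to 1.10), and a single OLE nucleus reached 20.4 per 10000 UMIs. Slc17a7 nuclei held 167 and 198 CPM of them. The summed 5 astrocyte markers went the other way, at 107 and 69.9 CPM (-0.62, -1.04 to -0.21), against 322 and 294 in Slc17a7 nuclei, and a single vehicle nucleus reached 49.4 per 10000 UMIs. Most of that sum was Gpc5, with 89 of 111 UMIs in vehicle and 63 of 91 in OLE. In Slc17a7 nuclei Gpc5 stood at 291 and 244 CPM. Among the other astrocyte markers, Slc1a3 stood at 7.75 and 9.99 CPM in the class and Gja1 at 7.75 and 6.91. Aqp4 stood at 2.91 and 1.54 CPM and Aldh1l1 at 2.91 and 3.07. Neither the oligodendrocyte nor the astrocyte list had a gene at 0. The 4 markers of oligodendrocyte precursors stood at 24.2 and 26.1 CPM, above the 11.2 and 16.6 of Slc17a7 nuclei, and the 7 Sst markers at 235 and 194 CPM against 85.4 and 109. Of the Sst marker UMIs, 140 of 243 in vehicle were Grin3a, and 112 of 252 in OLE were Crhbp and 87 Grin3a. Each of the 7 Sst markers stood higher in Sst nuclei in both libraries, with Grin3a at 1231 and 1037 CPM there. The 7 markers of striatal projection neurons stood at 1064 and 1036 CPM, close to the 1083 and 1030 of Slc17a7 nuclei, with Adora2a and Penk at 0. Nearly all of that sum was Pde10a, at 1042 and 1016 CPM in the class and 1057 and 1000 in Slc17a7 nuclei. The 8 markers of Adarb2 classes (90.1 and 111 CPM) and the 6 of microglia (22.3 and 29.2) were under their sums in Slc17a7 nuclei (194 and 326, 29.1 and 39.8). The 4 endothelial markers had 1 and 10 UMIs, and the part of these transcripts in the differences below was not tested.

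Compared with Sst nuclei, their closest relatives by origin, the Sst-negative Nxph1 nuclei shared transcription factors and differed in many other genes. Sox6, a factor of medial ganglionic eminence interneurons, was at 1077 and 872 CPM in the class and at 851 and 819 in Sst nuclei, and Satb1 was at 297 and 326 against 435 and 401. The 10 genes with the highest ratio to Sst nuclei were Pde5a, Rbm20, Fras1, Syt2, Tmem108, Cemip, Pla2g3, Chsy3, Ndst3 and Parm1. Pde5a, which encodes a phosphodiesterase that degrades cyclic GMP, led with log2 ratios of 3.83 in vehicle and 4.69 in OLE. Cemip, whose product takes part in hyaluronan breakdown, stood at 3.15 and 2.99. Chsy3 and Ndst3, enzymes that build chondroitin sulfate and modify heparan sulfate, stood at 2.76 and 2.83 and at 3.95 and 2.16. Each of these values is a description of how the classes were separated, since Sst counts chose both.

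Compared with Adarb2 nuclei, which derive from the caudal ganglionic eminence and hold the Vip and Lamp5 classes, the leading genes were Mypn, Syt2, Slit2, Il1rapl2, Nek7, Moxd1, Myo1e, Creb5, Eya4 and Sox6. Mypn had 100 and 148 UMIs in the class and 3 and 0 UMIs in Adarb2 nuclei. Slit2, a guidance cue for axons, stood at log2 ratios of 4.97 in vehicle and 4.74 in OLE, and Il1rapl2, a synaptic adhesion gene, at 5.46 and 4.38. Erbb4, the neuregulin receptor, did not mark the class among interneurons: its 13608 and 12447 CPM stood at log2 ratios of 1.76 and 1.83 to Sst nuclei, but Adarb2 nuclei without Vip were close to that level at 11541 and 11660 CPM.

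Between the conditions, Hspa8, Atp1b1, Itm2b and Slc32a1 were among the genes higher in the OLE library, and Chrm3, Cdh10 and Grm7 among a smaller number that was lower. Of 2082 genes whose UMIs in the class reached 200 in the 2 libraries together, 46 (2.21%) were at least 1.5-fold higher in OLE with a counting interval above 0, and 23 (1.10%) were at least 1.5-fold lower. The median log2 ratio of all 2082 genes was -0.00. By the same rule, Sst nuclei had 3.77% higher and 2.46% lower of 1220 genes, Adarb2 nuclei 2.93% and 1.42% of 2597, and Slc17a7 nuclei 4.10% and 0.0855% of 11699. These classes come from the same 2 libraries, so they are no independent repeat, and their numbers of genes reaching 200 UMIs differ with the depth of each class. A ratio of libraries cannot separate more RNA per nucleus of one gene from less of others.

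**Figure D2:**
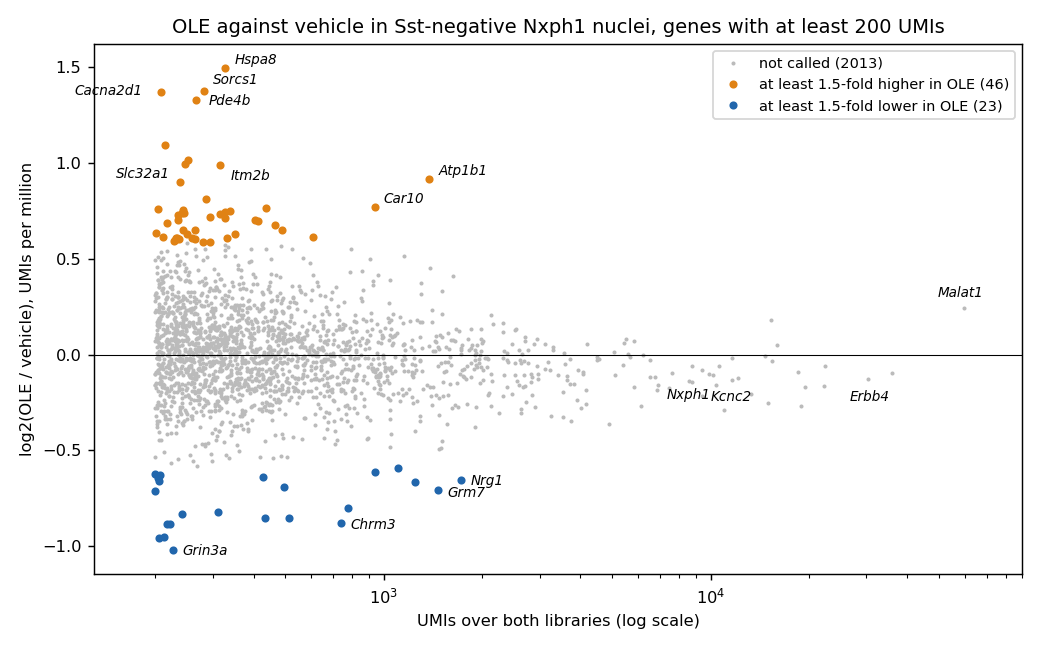
log2 ratio of OLE to vehicle (CPM of the class) against the UMIs over both libraries (log scale) for 2082 genes in Sst-negative Nxph1 nuclei; orange marks 46 genes at least 1.5-fold higher in OLE, blue 23 at least 1.5-fold lower, and grey the others. Hspa8 has the highest ratio and Grin3a the lowest, while Malat1 and Erbb4, with very many counts, lie at 0.24 and -0.13.

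The 10 highest log2 ratios belonged to Hspa8, Sorcs1, Cacna2d1, Pde4b, Atp6ap2, Chgb, Slc32a1, Itm2b, Atp1b1 and Hsp90ab1. Hspa8 (chromosome 9, 40800984 to 40810087), the constitutive heat shock protein that folds new chains and uncoats clathrin vesicles, had 72 UMIs in vehicle and 256 in OLE. Single vehicle nuclei held 0 to 3.59 Hspa8 UMIs per 10000 with a median of 0.678, and OLE nuclei 0 to 6.85 with a median of 1.62. The ranges overlapped while the median nucleus was higher in OLE, and the gene was detected in 34 of 45 and 55 of 61 nuclei. The log2 ratio of Hspa8 was 1.5 (95% interval 1.11 to 1.89) and was 1.58 without its 2 highest nuclei in each library. In Sst, Adarb2 and Slc17a7 nuclei the log2 ratio of Hspa8 was 1.23, 0.77 and 0.92.

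Atp1b1 (chromosome 1, 164437109 to 164458355), the beta subunit of the sodium pump, combined a high count with a difference across the population. It was found in every member, at 408 UMIs in vehicle and 972 in OLE. Vehicle nuclei ranged from 0.950 to 8.38 Atp1b1 UMIs per 10000 with a median of 4.14, and OLE nuclei from 0.641 to 21.2 with a median of 6.80. The lowest nucleus of all was an OLE nucleus, but the OLE median lay well up in the vehicle range. The log2 ratio was 0.92 (0.75 to 1.09), and 0.84, 0.80 and 0.72 in Sst, Adarb2 and Slc17a7 nuclei.

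Itm2b (chromosome 14, 73362226 to 73385289), whose membrane protein binds amyloid precursor protein and inhibits its processing, had 90 and 225 UMIs. Its median nucleus stood at 0.734 per 10000 in vehicle (0 to 3.31) and 1.57 in OLE (0 to 6.04), and it was detected in 35 of 45 and 59 of 61 nuclei. The log2 ratio of Itm2b was 0.99 (0.63 to 1.36) in the class and 1.01, 0.81 and 0.84 in Sst, Adarb2 and Slc17a7 nuclei. Chgb, the granule protein secretogranin-1, had 71 and 181 UMIs (1.02, 0.61 to 1.43) and was in 30 and 54 nuclei. Atp6ap2, an accessory subunit of the proton pump that acidifies vesicles, had 58 and 156 UMIs (1.09, 0.65 to 1.55) and was in 30 and 52 nuclei.

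A few of the high ratios rested on single nuclei. Cacna2d1, the alpha-2-delta-1 subunit of calcium channels and a gabapentin target, had 49 and 160 UMIs (1.37, 0.90 to 1.87), but 2 OLE nuclei held 67.5% of the OLE counts and the highest reached 43.6 per 10000 beside a median of 0.315. Without the 2 highest nuclei of each library its log2 ratio was 0.12, and in the nuclei with a Pvalb UMI it was -0.80. Pde4b, a phosphodiesterase for cyclic AMP, had 64 and 203 UMIs (1.33, 0.92 to 1.76), with 61.1% of the OLE counts in 2 nuclei. Its ratio was 0.30 without the 2 highest nuclei of each library. Sorcs1, a sorting receptor, had 66 and 216 UMIs (1.38, 0.97 to 1.80) and kept 1.29 without its top nuclei, although its median nucleus was lower in OLE (0.275 against 0.417 per 10000).

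**Figure D3:**
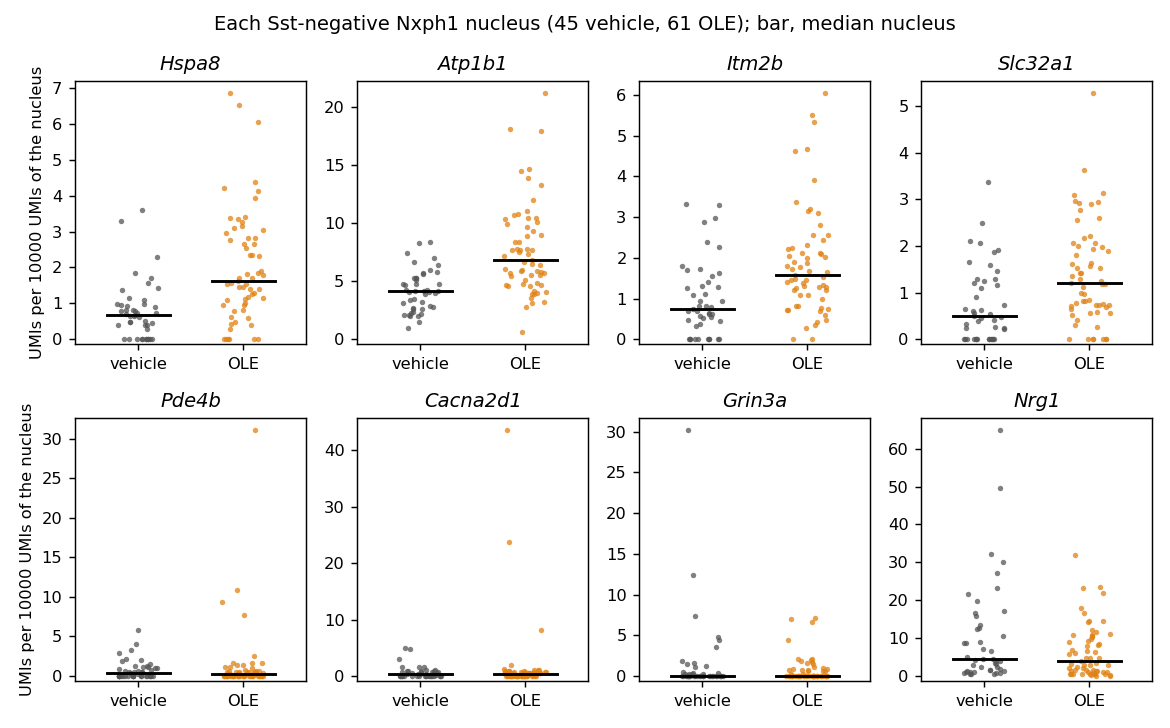
UMIs per 10000 UMIs of a nucleus for 8 genes, with 1 point for each of the 45 vehicle and 61 OLE Sst-negative Nxph1 nuclei and a bar at the median nucleus. For Hspa8, Atp1b1, Itm2b and Slc32a1 the median OLE nucleus is higher and the ranges overlap, for Pde4b and Cacna2d1 single OLE nuclei stand far above the rest, and for Grin3a and Nrg1 the highest points are vehicle nuclei.

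Most called genes of either direction had a median nucleus shifted the same way. The same nuclei chose these genes, so this describes the calls and is no separate support for them. Of the 46 higher genes, 42 had a higher median nucleus in OLE and 6 had at least 25% of the counts of a library in 2 nuclei. Of the 23 lower genes, 21 had a lower median nucleus in OLE and 11 had at least 25% of a library's counts in 2 nuclei. The median log2 ratio was 0.71 for the higher genes and 0.75 without the 2 highest nuclei of each library, and it was -0.71 and -0.59 for the lower genes. The difference between the sets in counts held by 2 nuclei was not tested. In nuclei with a Pvalb UMI (23 vehicle, 36 OLE), where 1207 genes reached 200 UMIs, 18 genes were higher and 12 lower, of which 9 and 1 were among the 46 and 23.

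The 10 lowest log2 ratios belonged to Grin3a, Gm32647, Cacna1e, Gm28928, Zdhhc2, Chrm3, Pcdh11x, Cdh10, Cacna2d3 and Trhde. Chrm3 (chromosome 13, 9875486 to 10360847), the M3 muscarinic acetylcholine receptor, had 440 UMIs in vehicle and 301 in OLE. Its median nucleus stood at 3.42 per 10000 in vehicle (0 to 38.8) and 1.53 in OLE (0 to 7.32). The vehicle maximum was a single nucleus, and the next vehicle nuclei stood at 11.4 and 7.72, so the ranges otherwise largely overlapped. The log2 ratio of Chrm3 was -0.88 (-1.10 to -0.67), and it was -0.61 without the top nuclei. Cdh10, a cadherin of cell adhesion, had 302 and 211 UMIs (-0.85, -1.11 to -0.59) and -1.0 without them. Pcdh11x, a protocadherin, had 255 and 178 UMIs (-0.85, -1.14 to -0.57), and Zdhhc2, an enzyme that attaches palmitate to proteins, had 129 and 88 UMIs (-0.89, -1.29 to -0.48). In Sst, Adarb2 and Slc17a7 nuclei the log2 ratio was 0.45, -0.22 and -0.16 for Cdh10 and 1.29, -1.15 and 0.18 for Pcdh11x.

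Grin3a (chromosome 4, 49661611 to 49845744), an NMDA receptor subunit that is abundant in Sst cells, had 140 and 87 UMIs and the lowest log2 ratio (-1.02, -1.42 to -0.62). It was at 0 in the median nucleus of both libraries and was detected in 18 of 45 and 23 of 61 nuclei. Only 2 vehicle nuclei held 62.1% of the vehicle counts, and without the 2 highest nuclei of each library the ratio was -0.49. Gm32647, a long noncoding gene, had 125 and 81 UMIs (-0.96, -1.38 to -0.55). For this gene 2 nuclei held 86.4% of the vehicle counts and 2 held 51.9% of the OLE counts. The Gm32647 ratio turned to 0.81 without the 2 highest nuclei of each library. Cacna2d3, another alpha-2-delta subunit, had 141 and 100 UMIs (-0.83, -1.21 to -0.45) with 45.4% of the vehicle counts in 2 nuclei. In the nuclei with a Pvalb UMI the ratios of Grin3a, Gm32647 and Cacna2d3 were 0.31, 2.12 and 0.54. There Trhde stood at 0.0578 and Pde4b at -0.046, each also with its sign changed.

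Part of that pattern followed a small subset of nuclei. At the finest clustering tried, 8 nuclei (6 vehicle, 2 OLE) carried Grin3a at 923 CPM against 40.7 in the other members, and Reln at 555 against 38.0. They held 0 Syt2 UMIs, 1 Pvalb UMI in all and 9 Sst UMIs. Kcnc2 and Btbd11 were at 2267 and 415 CPM in them, against 4142 and 839 in the other members. The label of Pvalb class was therefore not borne out by Syt2 or Pvalb in these 8 nuclei. Of the 209 Cacna2d1 UMIs of the class, 121 were in them, most in OLE (108 UMIs). Without the subset, 46 genes were higher and 15 lower in OLE, of which 35 and 8 were among the 46 and 23, and the ratio of Grin3a was 0.88.

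Of 5 tested genes that make, package and remove GABA, 4 stood above 0 and 1 was called higher, beside 2.21% of all genes tested. Slc32a1 (chromosome 2, 158610767 to 158615748), the transporter that loads GABA into synaptic vesicles, was the gene called. It had 70 and 176 UMIs and was in 32 of 45 and 54 of 61 nuclei. The median vehicle nucleus stood at 0.503 per 10000 (0 to 3.36) and the median OLE nucleus at 1.20 (0 to 5.27). The log2 ratio of Slc32a1 was 1.00 (0.59 to 1.42), and 0.65, 0.65 and 0.94 in Sst, Adarb2 and Slc17a7 nuclei. Gad1, a GABA-synthesizing enzyme that also served in the selection, stood at 393 and 650 UMIs (0.39, 0.21 to 0.58), while Gad2 stood at 302 and 348 (-0.13, -0.36 to 0.10). Abat, which degrades GABA, stood at 142 and 251 UMIs (0.49, 0.18 to 0.79). The median of the 5 genes was 0.39 beside -0.00 over all genes tested, and 0.18 in nuclei with a Pvalb UMI. That 0.39 is the value of Gad1 itself. Since Gad1 and Gad2 chose the nuclei, the list median partly describes the selection. Medians of the same list were 0.25 in Sst, 0.25 in Adarb2 and 0.50 in Slc17a7 nuclei.

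Transcription factors of the lineage differed little. None of 7 that reached 200 UMIs was called, beside 2.21% of all genes called higher and 1.10% lower. Their median log2 ratio was -0.03. Sox6, needed for the maturation of these interneurons, had 1112 and 1135 UMIs (-0.30, -0.43 to -0.18). Mef2c had 1475 and 1761 (-0.08), Esrrg 933 and 1156 (-0.03), and Zeb2 873 and 1054 (-0.06). Ppargc1a, a coactivator of mitochondrial genes that is high in Pvalb cells, had 283 and 383 UMIs (0.10, -0.12 to 0.33).

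Voltage-gated channels of fast spiking were near the median, with 2 of 19 tested genes called higher, beside 2.21% of all genes, and 0 called lower. Among those called higher was Kcna1, the Kv1.1 potassium channel of axons, with 89 and 176 UMIs (0.65, 0.27 to 1.03). Kcnc2, a Kv3 channel with many counts, stood slightly under 0 at -0.22 (-0.27 to -0.16). Kcnc1, the Kv3.1 channel, stood at 0.21 (0.03 to 0.39), and Scn1a, the Nav1.1 sodium channel, at -0.04 (-0.18 to 0.11). The list median was -0.05. Scn4b, a further sodium channel subunit, had 0 UMIs in vehicle and 14 in OLE and is named after its values were seen.

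Among calcium binding proteins, Calm2 stood at 0.47 (0.15 to 0.79) and Ncald at -0.02 (-0.21 to 0.17), and neither was called. Pvalb itself was under the 200-UMI minimum, at 47.5 CPM in vehicle and 68.4 in OLE (log2 ratio 0.53, 0.01 to 1.06). The median nucleus held 0.324 and 0.541 Pvalb UMIs per 10000, and the 2 highest nuclei held 24.5% and 13.5% of the counts.

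Receptors were mostly close to the median of all genes. Of 16 glutamate receptor genes and partners tested, none was called higher and Grin3a and Grm7 were called lower, beside 1.10% of all genes, with a list median of -0.03. Grm7, a presynaptic metabotropic receptor, had 829 and 640 UMIs (-0.71, -0.86 to -0.56) and -0.57 without its top nuclei. The AMPA receptor subunits Gria1 and Gria4 had 2362 and 3153 UMIs (0.08, 0.01 to 0.16) and 2513 and 3326 (0.07, -0.01 to 0.15). Erbb4 stood at -0.13 (-0.16 to -0.10). None of 13 GABA receptor and scaffold genes was called (median -0.02), beside 2.21% of all genes called higher and 1.10% lower. Gabrd, the delta subunit of extrasynaptic receptors, was under the minimum with 59 and 136 UMIs (0.87, 0.42 to 1.34), a gene named after its values were seen. Of 5 neuromodulator receptors tested only Chrm3 was called, beside 1.10% of all genes called lower, and the median was -0.25.

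Genes of vesicle release included 2 called higher of 14 tested, beside 2.21% of all genes, with a median of 0.04. Syt2 had 107 and 221 UMIs (0.71, 0.37 to 1.06) at nearly the same share of nuclei in both libraries (26 of 45 and 36 of 61). Its median nucleus held 0.477 and 0.764 per 10000, with ranges of 0 to 4.37 and 0 to 6.03. The Syt2 ratio was 3.67 in Sst nuclei, where vehicle held 1 UMI, and -0.58 in Adarb2 nuclei and 0.07 in Slc17a7 nuclei. Sv2a, a vesicle protein and the target of levetiracetam, had 208 and 401 UMIs (0.61, 0.37 to 0.86). Syt1, the more common calcium sensor, stood at -0.14 (-0.20 to -0.07) and Snap25 at 0.02 (-0.11 to 0.16).

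Adhesion genes and synapse organizers, among the longest genes of the genome, stood slightly lower, with a median of -0.10 over 23 tested. Of these, 1 was called higher and 1 lower, beside 2.21% and 1.10% of all genes. Cntnap5b, a neurexin-family member, was called higher with 154 and 310 UMIs (0.68, 0.39 to 0.96). Nrg1 (chromosome 8, 31814551 to 32884029), a ligand of Erbb4, was called lower with 959 and 768 UMIs (-0.65, -0.79 to -0.52). The median Nrg1 nucleus stood close in both libraries, at 4.51 and 4.07 per 10000, while the highest stood at 64.9 in vehicle and 31.9 in OLE. In the nuclei with a Pvalb UMI the Nrg1 ratio was 0.020. Nxph1, the neurexin ligand used in the selection, stood at -0.16 (-0.23 to -0.09).

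No neuropeptide reached 200 UMIs, and the 16 listed genes summed to 209 and 390 UMIs (log2 ratio 0.57, 0.32 to 0.82). The sum of these genes stood at 0.87 in Sst, 0.45 in Adarb2 and 1.13 in Slc17a7 nuclei. Tac1 had 61 and 109 UMIs (0.50, 0.04 to 0.98). Crhbp, which binds corticotropin-releasing hormone, had 38 and 112 (1.23, 0.68 to 1.80) and was chosen after its values were seen. Of perineuronal net genes, the matrix around Pvalb cells, Bcan stood at 0.47 (0.07 to 0.87) and Tnr at -0.06 (-0.21 to 0.09). Acan, which encodes the main net proteoglycan aggrecan, had only 11 and 35 UMIs (1.34, 0.33 to 2.46).

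All 4 tested genes of the cytosolic and mitochondrial chaperone list stood above 0. Hspa8 and Hsp90ab1 were called higher, beside 2.21% of all genes, and the summed list had 959 and 1724 UMIs (log2 ratio 0.51, 0.40 to 0.63). Hsp90ab1, the constitutive Hsp90, had 71 and 167 UMIs (0.90, 0.49 to 1.32) and was in 35 of 45 and 55 of 61 nuclei. Hspa4l and Dnajc7 stood at 0.19 (-0.17 to 0.55) and 0.28 (-0.09 to 0.66). Since Hspa8 alone supplied 72 and 256 of the UMIs, it weighed heavily in this sum. In Sst, Adarb2 and Slc17a7 nuclei the summed list stood at log2 ratios of 0.55, 0.36 and 0.28.

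In the list of ER chaperones and folding factors, all 5 tested genes stood above 0 and 2 were called higher, beside 2.21% of all genes, with a median of 0.50. Canx, the lectin chaperone calnexin, had 97 and 184 UMIs (0.59, 0.23 to 0.96) and Hsp90b1, the ER Hsp90, 91 and 174 (0.60, 0.23 to 0.98). The calcium pump Atp2a2 stood at 0.50 (0.25 to 0.76), Calr, the lectin chaperone calreticulin, at 0.44 (0.03 to 0.85) and Sel1l, an adaptor of ER-associated degradation, at 0.18 (-0.23 to 0.60). The 23 genes together had 913 and 1646 UMIs (log2 ratio of the sum 0.52, 0.40 to 0.63). Sums of the same list gave 0.41 in Sst, 0.48 in Adarb2 and 0.49 in Slc17a7 nuclei. Hspa5, the ER Hsp70 known as BiP (chromosome 2, 34771970 to 34777547), fell short of the minimum with 45 and 128 UMIs (1.17, 0.67 to 1.70), and is named with Pdia6 (22 and 55 UMIs, 0.99, 0.25 to 1.77) after its values were seen. Hspa5 was detected in 27 of 45 and 49 of 61 nuclei, with median nuclei at 0.324 and 0.787 per 10000.

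Genes of amyloid precursor processing stood above 0 in all 6 tested cases, with a median of 0.30, and only Itm2b was called, beside 2.21% of all genes called higher. The median of this list was 0.44 in Sst, 0.46 in Adarb2 and 0.23 in Slc17a7 nuclei. App, counted from reads aligned to the mouse gene, had 613 and 895 UMIs (0.21, 0.06 to 0.36), and its relative Aplp2 163 and 290 (0.50, 0.22 to 0.78). Whether reads of the transgene entered the App count was not tested. Sorl1, a sorting receptor for App, stood at 0.39 (-0.03 to 0.82) and Mapt, which encodes tau, at 0.06 (-0.13 to 0.26). Of 8 sodium and calcium pumps tested only Atp1b1 was called, beside 2.21% of all genes called higher. Of the pumps, 6 stood above 0 and 2 below, with a median of 0.17. Of 4 respiratory chain genes tested, 2 stood above 0 and 2 below, with a median of 0.05. Only Atp5b, a subunit of the mitochondrial ATP synthase, was called, beside 2.21% of all genes, with 76 and 159 UMIs (0.73, 0.33 to 1.14). Of immediate early genes only Homer1 was abundant enough (-0.10, -0.46 to 0.27). Of 5 nuclear noncoding RNAs none was called, beside 2.21% of all genes called higher and 1.10% lower. Malat1 stood at 0.24 (0.22 to 0.27) and Meg3 at -0.10 (-0.13 to -0.07).

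**Figure D4:**
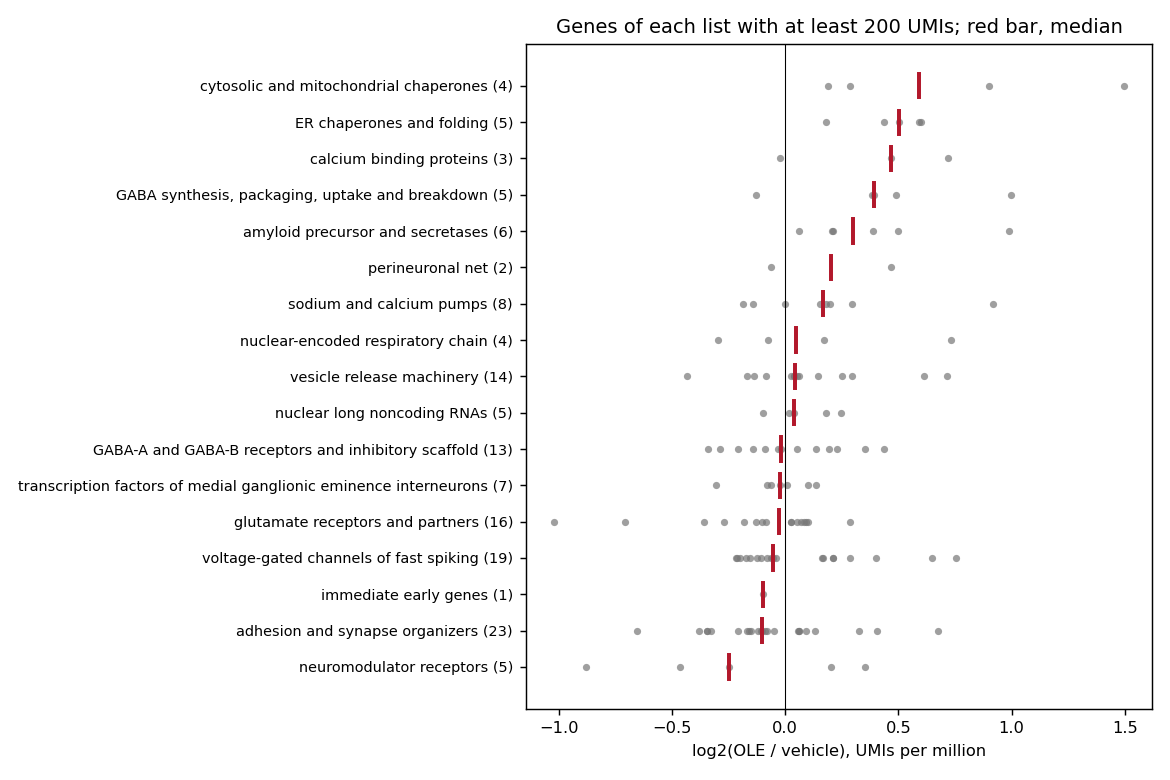
log2 ratio of OLE to vehicle for the genes of 17 lists with at least 200 UMIs (grey points, number in brackets) and the list median (red bar), in Sst-negative Nxph1 nuclei. Both chaperone lists have every point above 0, channels and receptors centre near 0, and single genes such as Atp1b1, Slc32a1, Grin3a and Chrm3 lie away from the rest of their lists.

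The genes called higher in OLE had a shorter median length than the genes called lower, with exceptions on both sides. The median gene length was 27.6 kb for the 46 higher genes, 410 kb for the 23 lower genes and 116 kb for all genes tested. Of the 46 higher genes 19 were at most 20 kb and 13 over 100 kb, and of the 23 lower genes 19 were over 100 kb. Among 103 genes of at most 20 kb, 19 (18.4%) were called higher and 0 lower, beside 2.21% and 1.10% of all genes tested. Their median log2 ratio was 0.24. The median was 0.04 for 791 genes of 20 to 100 kb, -0.02 for 1002 genes of 100 to 500 kb and -0.10 for 185 longer genes. Of those 185 genes, 5 (2.70%) were called higher and 9 (4.86%) lower. Genes of at most 20 kb also stood higher in the other classes of the same libraries, with medians of 0.25 in Sst, 0.27 in Adarb2 and 0.20 in Slc17a7 nuclei. Hspa8, Slc32a1, Hsp90ab1, Chgb, Kcna1, Atp5b and Sv2a are all under 20 kb, whereas Chrm3, Nrg1, Grm7 and Cacna2d3 exceed 400 kb. Gene length and the functions of these lists move together here, and their separate parts in the differences were not tested.

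At the coarsest of 3 resolutions the class divided into 2 subclusters with nearly equal shares of both libraries. Subcluster 1 held 17 vehicle and 23 OLE nuclei (37.8% and 37.7%) and subcluster 2 held 28 and 38. Subcluster 1 was led by Gm32647, Chrm2, Ptprk, Filip1l, Kcnip4, Tcerg1l, Tmtc2, Pcdh17, Tac1 and Gm30382. Kcnip4, a partner of Kv4 channels, stood at 7303 CPM in it against 1516 in subcluster 2, and Chrm2, the M2 muscarinic receptor, at 172 against 18.2. Subcluster 2 was led by Col25a1, Nkain3, Il1rapl2, Reln, Gm15398, Pcdh15, C130073E24Rik, Tox, Gpc5 and Luzp2. Il1rapl2 stood at 2823 CPM in it against 185, and Pcdh15, a protocadherin, at 1487 against 223. These genes defined the subclusters and are no finding about them.

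**Figure D5:**
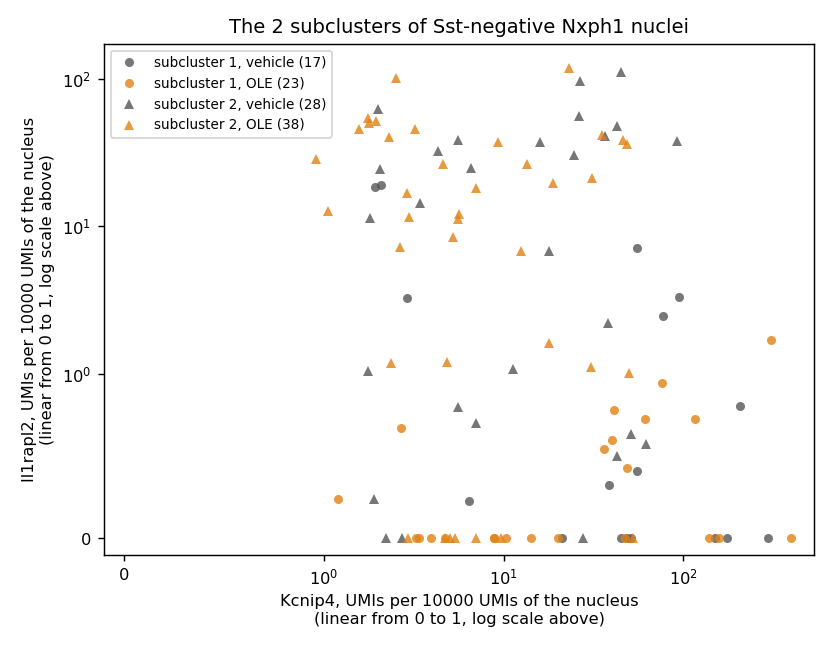
Kcnip4 against Il1rapl2 in each Sst-negative Nxph1 nucleus, in UMIs per 10000 UMIs of the nucleus (both axes linear from 0 to 1 and logarithmic above); circles are subcluster 1, triangles subcluster 2, grey the vehicle and orange the OLE library. Most nuclei rich in Il1rapl2 are triangles and nuclei of both libraries lie in each group, while the groups overlap at low Il1rapl2.

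Pvalb and Syt2 were present in both subclusters. Pvalb stood at 61.7 and 57.5 CPM and was in 25 of 40 and 34 of 66 nuclei, and Syt2 stood at 143 and 139 CPM. Hspa8, Atp1b1, Slc32a1 and Itm2b were higher in OLE in each subcluster. In subcluster 1, OLE stood above vehicle by a log2 ratio of 1.03 (0.39 to 1.72) for Hspa8, 0.87 (0.59 to 1.14) for Atp1b1, 0.86 (0.12 to 1.62) for Slc32a1 and 0.90 (0.31 to 1.52) for Itm2b. In subcluster 2 the same genes stood at 1.70 (1.21 to 2.21), 0.94 (0.73 to 1.16), 1.03 (0.53 to 1.55) and 1.03 (0.57 to 1.5). Chrm3 was lower in OLE in both, at -1.10 (-1.47 to -0.73) and -0.77 (-1.04 to -0.50). Grin3a pointed in opposite directions, at 1.27 (0.24 to 2.42) on 41 UMIs in subcluster 1 and -1.62 (-2.09 to -1.16) in subcluster 2, which held 23 nuclei with the transcript. At higher resolution the nuclei split into 4 and 7 subclusters of 8 to 38 nuclei. Among the 7, shares differed more between the libraries: the first held 11.1% of vehicle and 26.2% of OLE nuclei (95% intervals 3.71 to 24.1 and 15.8 to 39.1), the fifth 22.2% and 8.20% (11.2 to 37.1 and 2.72 to 18.1), and the 8 nuclei rich in Grin3a 13.3% and 3.28% (5.05 to 26.8 and 0.400 to 11.3).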

How the data were processed

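Nuclei of frozen entorhinal cortex were profiled with 10x 3′ v3 chemistry. The submitters' processing notes name Cell Ranger 3.0.1, Seurat 4.0.4 and mm10. Reads were aligned to a pre-mRNA reference, so intronic reads entered the counts. The authors deposited unnormalized UMI counts per gene and nucleus, and these counts were the only values used. Reads from introns raise the counts of long genes, and 3′ counts do not allow levels of different genes to be ranked. Doublet removal is described in the study's methods, but not whether it preceded the deposit. Here Scrublet (scanpy 1.11.5) called 0.119% and 0.113% of the nuclei of the vehicle and OLE library at its automatic threshold, a rate too low to trust, so all nuclei were kept and the top 5% of scores was left out only as an alternative.

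The members, markers and gene lists were chosen with earlier results of these data known. Members' UMIs were summed per library, scaled to 1000000 (CPM) and expressed as a log2 ratio of OLE to vehicle, with no pseudocount. A gene needed 200 UMIs over both libraries, and was called at 1.5-fold with a 95% exact binomial (Clopper-Pearson) interval off 0. As each condition had 1 library, conditions were not tested against each other. Intervals cover counting error only, and amplification copies are removed by UMIs. Genes named are those of the rule and its markers, called genes of each list and up to 4 others with most UMIs, the 10 highest and 10 lowest ratios, the 10 highest ratios to Sst and to Adarb2 nuclei, and the 10 leading genes of each subcluster. Others are stated to have been chosen after their values were seen. Subclusters used 1500 variable genes, 15 components, 15 neighbours and the Leiden method at resolution 0.3, 0.6 and 1. Gene lengths are from GENCODE vM21, to which 31011 of 31053 genes (99.9%) were matched. The ratio calculation was tested on simulated sums with counting error only, so that test does not cover variation between nuclei of a library. Python 3.11.15, numpy 2.4.6, scipy 1.17.1, pandas 2.3.3 and matplotlib 3.10.9 were used. Alternatives were a minimum of 10000 UMIs, doublet scores, stricter gates, shared barcodes, scaling, thinning to 5000 UMIs, a gene minimum of 100 UMIs and nuclei with Pvalb. Y-linked genes and Xist were not named, and a few further genes that the rule selects are not reported here, although counts and medians of lists include them.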

Additional observations from a re-analysis of the deposited data

How the results depend on the processing

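No paired analysis was possible because each condition had 1 library. A minimum of 10000 UMIs, removal of doublet scores or shared barcodes, and median scaling left both counts of genes within 1.5 times and the share of the class within its counting interval. No member had a shared barcode, so that removal could change no ratio. Median scaling could change almost nothing, since the median log2 ratio was already -0.00. The 10000-UMI minimum kept 45 vehicle and 59 OLE nuclei. Without the top doublet scores (43 and 59 nuclei), 44 genes were higher and 18 lower (39 and 17 shared). With Sst at 0 and Nxph1 at 10 or more, 29 genes were higher and 13 lower in OLE (16 and 4 of them among the 46 and 23), and Ralyl (0.47), Grin3a (0.80), Gm32647 (2.24), Trhde (0.47) and Cacna2d3 (0.55) turned positive. With nuclei thinned to 5000 UMIs only 373 genes could be compared, 3 were higher and 7 lower (1 and 3 shared), the medians were -0.20 for transcription factors and -0.029 for adhesion genes, and Tbc1d30 (0.047), Ckb (-0.034) and Cd47 (-0.016) changed sign. A gene minimum of 100 UMIs gave 160 and 52. In nuclei with a Pvalb UMI 18 were higher and 12 lower (9 and 1 shared), the medians were 0.18 for GABA genes and -0.031 for adhesion genes, and Ralyl (0.091), Grin3a (0.31), Pde4b (-0.046), Cacna2d1 (-0.80), Gm32647 (2.12), Trhde (0.0578), Nrg1 (0.020), Cacna2d3 (0.54) and Sgcd (0.042) changed sign. Both remaining alternatives were chosen after seeing the data. Without the Grin3a and Reln subset 15 genes were lower (8 shared), with Grin3a at 0.88 and Cacna2d3 at 0.27. Without the 2 highest nuclei of each gene in each library 14 were lower (12 shared), with Gm32647 at 0.81. Apart from the thinned counts, which test fewer genes, the cause of these shifts was not tested. For single genes, 1778 values stayed within their counting interval, 171 moved and 20 changed sign.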

Other observations

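Single genes outside the lists above, chosen after their values were seen, were also among the 46 called higher in OLE in Sst-negative Nxph1 nuclei. They form no list, and no share of any pathway is given for them. Pcsk1n, an inhibitor of prohormone convertase, had 105 UMIs in vehicle and 222 in OLE (log2 ratio 0.75, 95% counting interval 0.40 to 1.09), and Scg2, secretogranin-2, had 85 and 166 (0.63, 0.25 to 1.03). Psap, the precursor of saposins, stood at 164 and 324 UMIs (0.65, 0.37 to 0.93) and Atp6v0b, a subunit of the vesicular proton pump, at 139 and 298 (0.77, 0.47 to 1.07). Slc38a2, which imports glutamine, stood at 79 and 166 UMIs (0.74, 0.34 to 1.14) and Slc1a1, a neuronal glutamate transporter, at 114 and 219 (0.61, 0.27 to 0.95). Car10, a secreted neurexin ligand, is 504 kb long and had 298 and 642 UMIs (0.77, 0.57 to 0.98), with a median nucleus of 2.11 and 3.87 per 10000, and ratios of 0.33, -0.01 and -0.06 in Sst, Adarb2 and Slc17a7 nuclei. Those differences between classes were not tested, since each rests on the same pair of libraries.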
